A study of Rattus norvegicus with 6 samples.

Results

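Genes that mark an injured or dedifferentiating kidney tubule were examined in the renal cortex of rats dosed with sulfone bis(p-chlorophenyl), in which a sulfonyl group joins a pair of chlorophenyl rings. The 10 genes were Havcr1, Lcn2, Clu, Spp1, Timp1, Vcam1, Krt18, Krt19, Sox9 and Cd44. They were listed by name, and their probes were found by matching each array probe's accession to RefSeq. Of these 10 genes, 9 had at least 1 probe, out of 15645 genes with a matched probe in all. Sox9 had no matched probe and was not analysed here. The 9 genes had 17 probes, of which 14 could be tested and 3, all for Cd44, failed the scanner's detection flag (signal well above background) on all 6 arrays. The other 8 genes had every probe tested.

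All animals were male Sprague-Dawley (Crl:CD(SD)) rats, 5 weeks old when bought and kept on a basal diet. The vehicle group of 3 rats received corn oil for 4 weeks, and the treated group of 3 rats received 250 mg/kg of the compound per day for 4 weeks. The route of dosing is not given in the sources used here. Cortex RNA from each rat was hybridised alone to a 1-colour Agilent array, and a value is log2 of the spot signal relative to that array's 75th percentile. Vehicle 1 to 3 and treated 1 shared slide 1 and scan 1, whereas treated 2 and 3 were on slide 2 and scan 2.

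After toxic or ischaemic injury, proximal tubule cells lose their brush border, re-enter a less differentiated state and spread over the denuded basement membrane. In that state they switch on surface and secreted proteins that the healthy tubule makes little of, and several of these are measured in urine as signs of kidney damage. Havcr1 encodes the phosphatidylserine receptor KIM-1, Lcn2 the iron siderophore carrier NGAL, Clu the secreted chaperone clusterin and Spp1 osteopontin. Timp1 inhibits matrix metalloproteinases, Vcam1 and Cd44 are adhesion receptors, Krt18 and Krt19 are simple-epithelium keratins and Sox9 is a transcription factor of regenerating tubule cells.

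Lcn2 and Vcam1 are textbook targets of the inflammatory transcription factor NF-kB, and their promoters are shown because one had a higher and the other a lower mean in treated cortex. The windows are the 250 bases before each start site, from RefSeq on build GRCr8, and capitals mark matches, on either strand, to a loose NF-kB pattern of 3 G, any 5 bases and 2 C.
Lcn2, chr3:36081781-36082030, minus strand: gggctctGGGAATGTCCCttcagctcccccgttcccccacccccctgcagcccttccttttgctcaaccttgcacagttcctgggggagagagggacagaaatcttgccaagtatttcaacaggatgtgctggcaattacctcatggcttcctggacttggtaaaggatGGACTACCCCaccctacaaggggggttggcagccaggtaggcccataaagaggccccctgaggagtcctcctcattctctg
Vcam1, chr2:206742784-206743033, minus strand: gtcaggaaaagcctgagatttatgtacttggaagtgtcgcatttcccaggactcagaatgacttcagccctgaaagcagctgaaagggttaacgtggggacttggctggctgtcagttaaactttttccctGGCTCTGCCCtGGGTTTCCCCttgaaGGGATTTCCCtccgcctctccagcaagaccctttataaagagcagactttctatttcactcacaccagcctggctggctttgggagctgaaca
The first capital run of Lcn2 holds overlapping matches on both strands. This loose pattern was present in 42.3% of 33469 promoter windows of the same length and in 5 of the 7 member windows that the RefSeq table holds, those of Vcam1, Lcn2, Cd44, Krt18 and Timp1. The AP-1 pattern TGANTCA and the STAT pattern TTCNNNGAA matched none of the 7 windows, against 6.34% and 7.67% of all windows. The heat shock pattern GAANNTTC matched the Havcr1 window alone (7.23% of all windows), and the SOX pattern ACAATG matched the Spp1 window alone (11.1%). The TATA box letters TATAAA matched the Vcam1 and Spp1 windows (12.9%). A match describes letters and not a bound site.

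The markers lay on both sides of 0 and none was called. None of the 14 tested member probes passed an adjusted p of 0.05 in limma (0 of 14), with adjusted p-values from 0.173 to 0.945. Of all 40643 tested probes, 3 passed, which is 0.00738%, with 0.00246% higher and 0.00492% lower. At an unadjusted p under 0.05 there were 2 of 14 member probes, both for Clu and both lower, against 20.6% of all tested probes (8.37% higher and 12.2% lower). The vehicle and treated groups did not overlap for 4 of 14 member probes, against 28.4% of all tested probes. Of these, 2 were higher (11.5% of all probes), for Timp1 and the dimmest Krt18 probe, and 2 were lower (17% of all probes), both for Clu. By brightest probe, 1 of 9 genes was higher without overlap (13.9% of all tested genes) and 1 lower (16.8%), together 2 of 9 against 30.7%. On the same basis, 5 of the 9 genes had a higher treated mean and 4 a lower one. Their median log2 difference was 0.15, against -0.013 over 12118 tested genes.

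**Figure D1:**
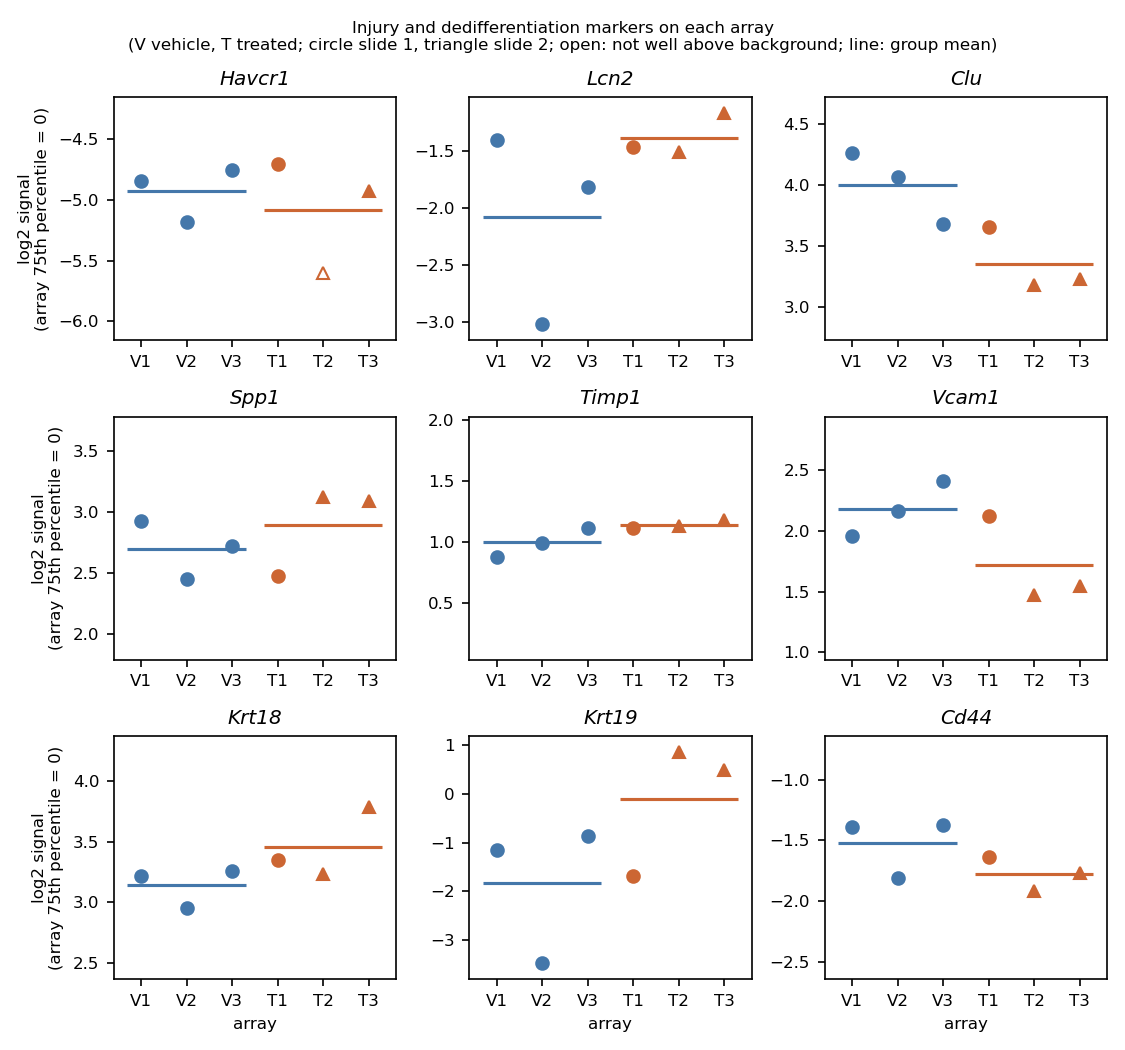
Log2 signal of each measured marker gene (brightest probe, array 75th percentile set to 0) on the 3 vehicle arrays (V1 to V3, blue) and the 3 treated arrays (T1 to T3, orange), with lines at the group means, circles for slide 1, triangles for slide 2 and an open symbol where the probe was not detected; each panel has its own axis of at least 2 log2 units. Krt19 spans the widest range, from -3.48 in vehicle 2 to 0.86 in treated 2, while Timp1 stays between 0.88 and 1.18 on all 6 arrays.

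Havcr1, a proximal tubule injury gene, had a signal close to background in both groups. For Havcr1 the vehicle arrays 1 to 3 gave log2 signals -4.84, -5.18 and -4.75, whereas treated arrays 1 to 3 gave -4.71, -5.60 and -4.93. The lowest signals called well above background on any array lay between -5.78 and -5.36, and Havcr1 in treated 2 was not well above background. The groups overlapped, with treated 1 the highest and treated 2 the lowest of the 6. The difference was -0.16 (SE 0.25, limma adjusted p = 0.748), with a 95% interval from -0.77 to 0.46. The upper end of that interval corresponds to a treated level 1.38 times that of vehicle.

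Lcn2, which epithelia and neutrophils secrete, differed most through 1 vehicle array. For Lcn2 the vehicle arrays 1 to 3 gave log2 signals -1.41, -3.02 and -1.82, whereas treated arrays 1 to 3 gave -1.47, -1.51 and -1.17. The treated values lay close together, whereas vehicle 2 was the lowest of the 6, and vehicle 1 was above treated 1 and treated 2. The difference was 0.70 (SE 0.41, limma adjusted p = 0.37), with a 95% interval from -0.30 to 1.70, and it was 0.23 without vehicle 2. The spread between vehicle arrays (SD 0.84) exceeded that of 98.5% of tested probes. The neutrophil genes S100a8 and S100a9, which encode calprotectin subunits, had differences of 0.81 (limma adjusted p = 0.278) and 0.82 (limma adjusted p = 0.272). S100a8 had -3.59, -3.31 and -2.39 in vehicle and -2.14, -1.90 and -2.80 in treated 1 to 3. Of the 6 neutrophil genes listed, 5 had a probe, 3 were tested, Elane and Cxcr2 were detected on none of the arrays, and Mpo had no matched probe. The other tested gene, Csf3r, had a difference of -0.11 (limma adjusted p = 0.659), and the median over the 3 was 0.81. The summed neutrophil signal was 0.347 to 0.673 times the array's 75th percentile in vehicle and 0.524 to 0.966 times in treated cortex. Its part in the Lcn2 values was not tested. In bulk tissue, fewer cells of a type and less RNA per cell cannot be told apart.

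Clu had a lower treated mean by both of its probes, but did not pass the adjusted threshold. For the brighter Clu probe the vehicle arrays 1 to 3 gave log2 signals 4.27, 4.07 and 3.68, whereas treated arrays 1 to 3 gave 3.65, 3.18 and 3.22. All 3 treated arrays lay below all 3 vehicle arrays, although treated 1 was only 0.025 below vehicle 3. Vehicle cortex averaged 4.01 ± 0.30 (SD, n = 3), and treated cortex averaged 3.35 ± 0.26 (SD, n = 3). The difference of -0.65 (SE 0.20, limma adjusted p = 0.173) is a 1.57-fold lower signal, with a 95% interval from -1.14 to -0.17. The second probe gave -0.64 (SE 0.20, limma adjusted p = 0.174) and followed the first on every array. With slide as a fixed block, which compares treated 1 with the 3 vehicle arrays, the differences were -0.35 and -0.34.

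Spp1, a secreted phosphoprotein of the distal nephron and of injured tubules, did not separate the groups. For Spp1 the vehicle arrays 1 to 3 gave log2 signals 2.93, 2.45 and 2.72, whereas treated arrays 1 to 3 gave 2.48, 3.12 and 3.09. Treated 2 and treated 3 exceeded every vehicle array, whereas treated 1 lay near the lowest vehicle array. The difference was 0.20 (SE 0.21, limma adjusted p = 0.619). Blocking on slide gave -0.22, the opposite sign, and leaving out 1 array gave from 0.07 without vehicle 2 to 0.41 without treated 1.

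Timp1 spanned the narrowest range of the 9 genes. For Timp1 the vehicle arrays 1 to 3 gave log2 signals 0.88, 0.99 and 1.11, whereas treated arrays 1 to 3 gave 1.11, 1.13 and 1.18. Treated 1 and vehicle 3 were level to 2 decimals, so the groups abutted with no gap between them. The difference was 0.15 (SE 0.09, limma adjusted p = 0.368), and its 95% interval reached a treated level 1.28 times that of vehicle at most. The treated SD of 0.03 exceeded that of only 4.7% of tested probes. The difference was 0.12 with slide as a block and 0.09 without vehicle 1.

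Vcam1, the adhesion receptor for leukocyte integrins, had its lowest values on both arrays of slide 2. For Vcam1 the vehicle arrays 1 to 3 gave log2 signals 1.96, 2.17 and 2.41, whereas treated arrays 1 to 3 gave 2.13, 1.47 and 1.55. Treated 1 lay inside the vehicle range, and treated 2 and 3 lay below it. The difference was -0.46 (SE 0.21, limma adjusted p = 0.272), with a 95% interval from -0.97 to 0.05, and blocking on slide gave -0.05. The macrophage list had medians against the vehicle mean of 0.20, -0.26 and 0.04 on the vehicle arrays and of -0.11, -0.46 and -0.43 on the treated arrays. The macrophage medians were lowest in treated 2 and 3 and highest in vehicle 1. Among the vehicle arrays, Vcam1 was lowest in vehicle 1. The medians of 4 lymphocyte genes were 0.17, -0.24 and 0.05 in vehicle and 0.18, -0.43 and -0.52 in treated cortex. Of 10 macrophage genes all 10 had a probe and 8 were tested, with a summed signal of 24.1 to 33.5 times the array's 75th percentile in vehicle and 23.1 to 27.2 times in treated cortex. Each of the 10 was detected on at least 1 array, Cd163 on 1 vehicle array only. Cd68 and Adgre1, which define macrophages, had differences of -0.38 (limma adjusted p = 0.257) and -0.85 (limma adjusted p = 0.16). Over the 8 tested macrophage genes the differences ran from -1.80 to 0.04, with a median of -0.32 and of -0.11 with slide as a block. At an unadjusted p under 0.05, 0 were higher (10.1% of all tested genes) and 3 lower (11.3%). Of the 8 lymphocyte genes 6 had a probe and 4 were tested, with a summed signal of 1.26 to 1.56 in vehicle and 0.984 to 1.62 in treated cortex. The T cell gene Cd3d had a difference of -0.17, and Cd3e was well above background on 2 vehicle arrays and on none of the treated arrays. Endothelial genes had medians of -0.03, 0.12 and 0.12 in treated 1, 2 and 3, with Pecam1 at 0.01 and Cdh5 at -0.09. Over the 7 tested endothelial genes the differences ran from -0.09 to 0.45, with a median of 0.02. At an unadjusted p under 0.05, 1 was higher (10.1% of all tested genes) and 0 lower (11.3%). Their summed signal was 31.8 to 34.4 in vehicle and 30 to 33.9 in treated cortex. The part of these cells in the Vcam1 values was not tested.

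Krt18, the keratin that pairs with Krt8 in simple epithelia, was measured by 3 probes with differences of 0.32, 0.23 and 0.41, from the brightest to the dimmest. For the brightest Krt18 probe the vehicle arrays 1 to 3 gave log2 signals 3.22, 2.95 and 3.25, whereas treated arrays 1 to 3 gave 3.35, 3.23 and 3.79. Treated 3 was the highest array for every Krt18 probe and vehicle 2 the lowest. The limma adjusted p-values were 0.335, 0.537 and 0.289, and the groups overlapped for 2 of the 3 probes. Without treated 3 the differences were 0.15, 0.02 and 0.20. Krt8 had 2.36, 2.14 and 2.15 in vehicle and 2.23, 2.54 and 2.64 in treated 1 to 3, a difference of 0.25 (limma adjusted p = 0.326). Liver transcripts were also highest in treated 3, with a median of 2.12 above the vehicle mean over 10 genes against -0.34 in treated 1 and 0.25 in treated 2. On vehicle 1 to 3 the liver medians were 0.94, 0.16 and -1.18. The liver medians were lowest in vehicle 3, and every Krt18 probe was lowest in vehicle 2. All 10 liver genes had a probe and were tested. Their summed signal was 22.8 to 56.0 times the array's 75th percentile in vehicle and 40.4 to 99.8 times in treated cortex. The albumin gene Alb differed by 0.55 and the transthyretin gene Ttr by 0.61, with adjusted p-values of 0.8 and 0.797 in limma. Over the 10 genes the differences ran from 0.08 to 2.32, with a median of 0.58 and of -0.34 with slide as a block. Apoh, at 2.03 (limma adjusted p = 0.108), was the 1 liver gene higher without overlap (13.9% of all tested genes). The part of liver transcripts in the Krt18 values was not tested.

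Krt19, the smallest of the keratins and a gene of ducts and of dedifferentiated tubule cells, varied widely between animals of both groups. For Krt19 the vehicle arrays 1 to 3 gave log2 signals -1.16, -3.48 and -0.86, whereas treated arrays 1 to 3 gave -1.68, 0.86 and 0.50. Treated 2 and 3 were the highest of the 6, but treated 1 lay below vehicle 1 and vehicle 3, so the groups overlapped. Vehicle cortex averaged -1.83 ± 1.43 (SD, n = 3), and treated cortex averaged -0.11 ± 1.38 (SD, n = 3). These SDs exceeded those of 99.5% and 99.4% of tested probes. The difference of 1.72 (SE 0.94, limma adjusted p = 0.339) had a 95% interval from -0.57 to 4.02. It was 0.15 with slide as a block, 0.90 without vehicle 2 and 2.51 without treated 1.

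Markers of other epithelia that make keratins are given beside Krt19. The collecting duct list had medians against the vehicle mean of -0.02, -0.05 and 0.04 in vehicle 1, 2 and 3. In treated 1, 2 and 3 they were -0.28, -0.08 and -0.17. Of its 9 genes 8 had a probe, with a summed signal of 197 to 208 times the array's 75th percentile in vehicle and 155 to 195 times in treated cortex. The treated sums were thus lower, without overlap between the groups. The water channel genes Aqp2 and Aqp3 had differences of -0.14 and -0.20. At an unadjusted p under 0.05, 0 of the 8 were higher (10.1% of all tested genes) and 2 lower (11.3%). These 2 were Hsd11b2 at -0.43 (limma adjusted p = 0.0912) and Scnn1g at -0.26 (limma adjusted p = 0.196). Scnn1a had 0.37 (limma adjusted p = 0.264). The inner medulla and urothelium list had medians of -0.13, 0.05 and 0.18 in vehicle and of 0.15, 0.04 and 0.16 in the treated arrays. Slc14a2 had a difference of -0.20 and Upk1a of -0.01. Upk3a had 0.73 (limma adjusted p = 0.139), without overlap, and the keratin gene Krt5 had -0.53 (limma adjusted p = 0.212). At an unadjusted p under 0.05 the list had 2 of 7 tested genes higher (10.1% of all tested genes) and 1 lower (11.3%). All 8 of its genes had a probe, and their summed signal was 5.4 to 6.81 in vehicle and 8.03 or more on each treated array, without overlap between the groups. The brightest signal in that sum was Slc5a3, an inositol transporter, with 2.07, 2.06 and 2.33 on the vehicle arrays and 3.18, 2.74 and 2.72 on the treated arrays (limma adjusted p = 0.12). Parietal epithelial genes had treated medians of -0.08, -0.10 and -0.08, with Cldn1 at -0.31 and Pax2 at -0.25. All 6 of them had a probe, with sums of 23 to 24.5 in vehicle and 19.5 to 24.3 in treated cortex. Krt7, a keratin of the distal nephron, had 4.23, 4.15 and 4.15 in vehicle and 3.82, 4.19 and 4.23 in treated 1 to 3. The part of these cells in the Krt19 values was not tested.

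Cd44, the hyaluronan receptor, was measured by 3 probes above background, with differences of -0.25, -0.23 and -0.02 from the brightest to the dimmest. For the brightest Cd44 probe the vehicle arrays 1 to 3 gave log2 signals -1.39, -1.81 and -1.37, whereas treated arrays 1 to 3 gave -1.63, -1.92 and -1.77. All treated arrays lay below vehicle 1 and 3, but treated 1 and treated 3 lay above vehicle 2. Its adjusted p was 0.377 in limma, with a 95% interval from -0.62 to 0.12, and the difference was -0.39 without vehicle 2. The dimmest tested probe gave 0.15 with normexp background correction, 0.03 with quantile normalization and 0.28 with slide as a block. The highest log2 signal of the 3 undetected probes on any array was -6.37.

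**Figure D2:**
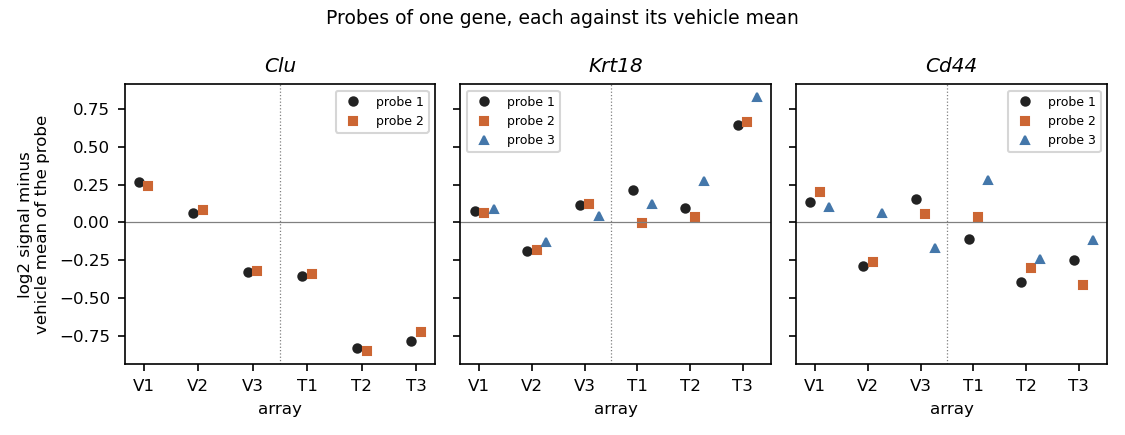
Log2 signal of each tested Clu, Krt18 and Cd44 probe on the 6 arrays, minus that probe's vehicle mean; probes are numbered from the brightest to the dimmest and the dotted line separates vehicle (V) from treated (T) arrays. Both Clu probes coincide on every array and all 3 Krt18 probes are highest in treated 3, while the third Cd44 probe departs from the other two.

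The distance between the treated animal on slide 1 and those on slide 2 varied by marker. By brightest probe, the mean of treated 2 and 3 minus treated 1 ran from -0.615 for Vcam1 to 2.363 for Krt19. It was 0.041 for Timp1 and 0.129 for Lcn2. Treated 1 lay within the vehicle range for 5 of the 9 genes, Lcn2, Spp1, Vcam1, Krt19 and Cd44, against 33.9% of all tested genes. Treated 2 and 3 both lay above it for Spp1, Timp1 and Krt19 (27% of all genes) and both below it for Clu and Vcam1 (26.7%). Since slide 2 holds only treated arrays, slide and the animals on it cannot be told apart. Without treated 1, 4307 of all 40643 probes passed an adjusted p of 0.05 in limma, which is 10.6% (3.61% higher and 6.98% lower), but still 0 of the 14 member probes. In that fit the closest members were Vcam1, with a difference of -0.67 (limma adjusted p = 0.0554), and Clu, with -0.80 and -0.79 (limma adjusted p = 0.0629 for both). With slide as a fixed block 0 of 14 member probes had an unadjusted p under 0.05, against 13.9% of all probes, and 0 of 14 passed the adjusted threshold in limma, against 0.00246%.

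**Figure D3:**
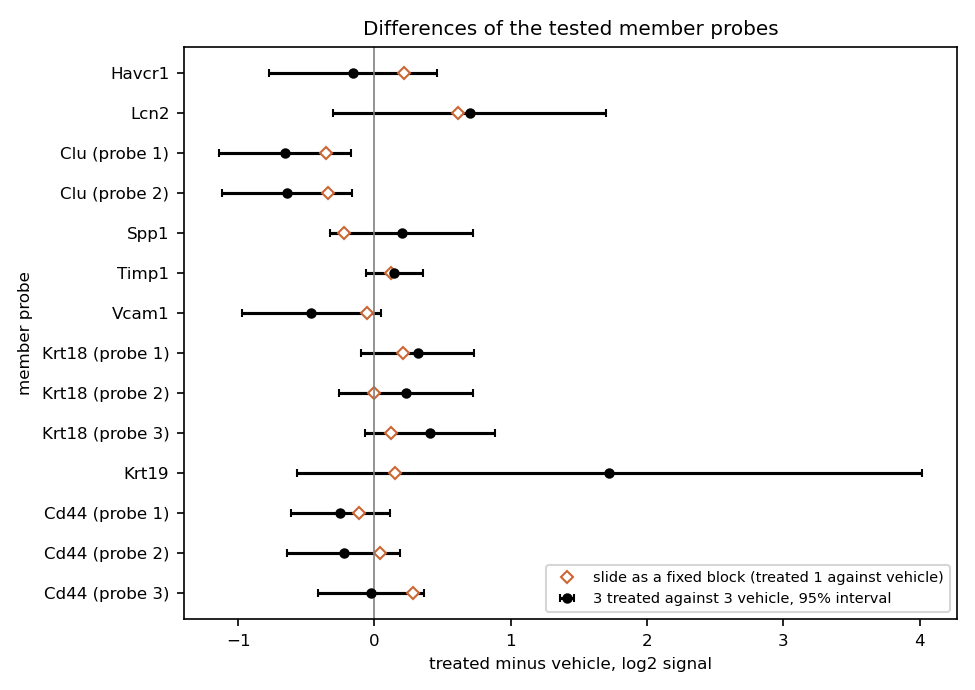
Treated minus vehicle difference in log2 signal for the 14 tested member probes, with 95% intervals from limma (black), and the same difference with slide as a fixed block (open orange diamonds, no interval drawn); probes of one gene are numbered from the brightest to the dimmest. Only the Clu intervals lie wholly on one side of 0, and the Krt19 interval is the widest, from -0.57 to 4.02.

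Genes that act with the markers also gave no call at the adjusted threshold in limma. Of 27 partners listed, 24 had a probe and 19 were tested, with a median difference of -0.14, and 2 were higher and 3 lower at an unadjusted p under 0.05. Over all 12118 tested genes, 21.4% had an unadjusted p under 0.05, 10.1% higher and 11.3% lower, and 0.0165% passed the adjusted threshold. The osteopontin and VCAM1 receptor chains Itga4 and Itgb1 had differences of -0.44 (limma adjusted p = 0.191) and 0.09 (limma adjusted p = 0.618), and Itgav had no matched probe. Among matrix metalloproteinases, Mmp2 had -0.23, Mmp9 had -0.87 (limma adjusted p = 0.272) and Mmp14 had -0.14. Among the metalloproteinase inhibitors other than Timp1, Timp2 had 0.24, Timp3 had 0.16 and Timp4 had -0.45. Their adjusted p-values were 0.241, 0.547 and 0.236 in limma. The NGAL receptors Lrp2, or megalin, and Slc22a17 had -0.32 (limma adjusted p = 0.17) and 0.12. Of the synthases of hyaluronan, the CD44 ligand, Has1 was detected on all 6 arrays with a difference of -0.22 (limma adjusted p = 0.417), and Has2 and Has3 were detected on none.

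Other genes of dedifferentiated tubules had a median difference of 0.09 over 29 tested of 32 listed, with 5 higher (10.1% of all tested genes) and 5 lower (11.3%) at an unadjusted p under 0.05 and 0 at the adjusted threshold in limma. Sox4, a developmental transcription factor, had 0.99, 1.00 and 1.00 in vehicle and 0.66, 0.60 and 0.60 in treated 1 to 3, a difference of -0.38 (SE 0.07, limma adjusted p = 0.0957). The mesenchymal filament gene Vim had a difference of 0.23 (limma adjusted p = 0.392), the adhesion gene Icam1 of -0.02 and the galectin Lgals3 of 0.48 (limma adjusted p = 0.228). Krt7 had a difference of -0.10, and Krt20, a keratin of injured tubules, was detected on none of the arrays.

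Other proteins measured in urine had a median difference of 0.20 over 14 genes, with 5 higher (10.1% of all tested genes) and 1 lower (11.3%) at an unadjusted p under 0.05 and 0 at the adjusted threshold in limma. The lower gene was Igfbp7, an insulin-like growth factor binding protein, with 3.03, 3.07 and 3.05 in vehicle and 2.61, 1.89 and 1.90 in treated 1 to 3, a difference of -0.92 (SE 0.20, limma adjusted p = 0.125). The cystatin gene Cst3 had 6.18, 6.33 and 6.34 in vehicle and 6.53, 6.47 and 6.81 in treated 1 to 3, without overlap (limma adjusted p = 0.208). Egf, made by the thick limb and distal tubule, had a difference of 0.43 (limma adjusted p = 0.128) and Umod, which encodes uromodulin, of 0.34 (limma adjusted p = 0.291). The calcium binding gene Calb1 had -0.28. Tff3, a trefoil peptide, had 2.48, 5.24 and 6.48 in vehicle and 7.20, 5.85 and 6.41 in treated 1 to 3, so that the low value of vehicle 1 carried most of its difference of 1.75 (limma adjusted p = 0.367). Thick limb and distal genes together had medians of 0.07, -0.05 and -0.02 in treated 1, 2 and 3, with Slc12a1 at 0.34. Over the 6 tested genes of that list the differences ran from -0.28 to 0.34, with a median of -0.11.

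Genes of the differentiated proximal tubule, which are lost when cells dedifferentiate, had a median difference of 0.18 over 24 tested genes and of -0.05 with slide as a block. At an unadjusted p under 0.05 there were 7 higher (10.1% of all tested genes) and 1 lower (11.3%), and 0 passed the adjusted threshold in limma. The regulator Hnf4a had a difference of 0.48 (limma adjusted p = 0.171), the phosphate transporter Slc34a1 of -0.07, the glucose transporter Slc5a2 of -0.17 and the water channel Aqp1 of 0.25. All 9 genes chosen to identify renal cortex were well above background on all 6 arrays. The podocyte gene Nphs1, which encodes nephrin, had a difference of 0.02.

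Immediate early and stress genes had a median difference of 0.20 over 17 tested of 18 listed, with 4 higher (10.1% of all tested genes) and 0 lower (11.3%) at an unadjusted p under 0.05 and 0 at the adjusted threshold in limma. Gdf15, a stress cytokine, had -0.37, -0.23 and 0.23 in vehicle and 0.99, 1.96 and 2.59 in treated 1 to 3. The groups did not overlap, and the difference was 1.97 (SE 0.41, limma adjusted p = 0.116). Cdkn1a, the cell cycle inhibitor p21, had a difference of -0.01, and the early response genes Fos and Atf3 had -0.20 and -0.33 (limma adjusted p-values 0.643 and 0.463).

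**Figure D4:**
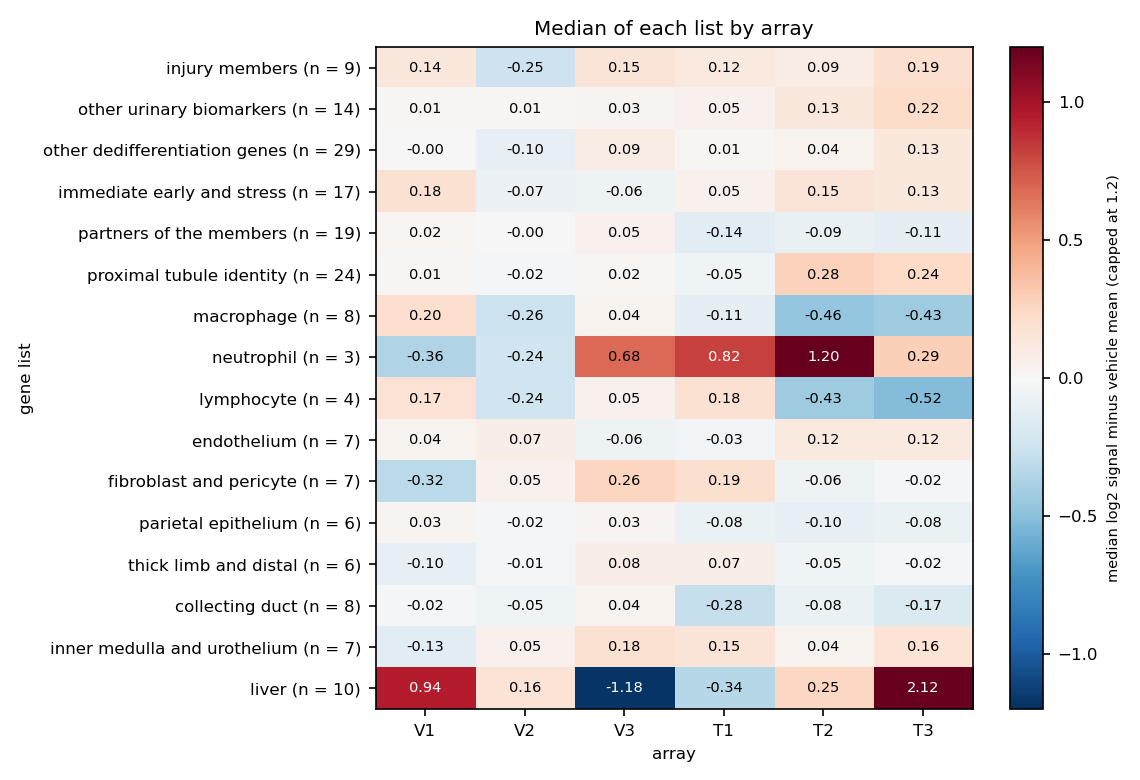
Median over the tested genes of each list, as log2 signal minus each gene's vehicle mean, on the 6 arrays (V vehicle, T treated); colours are capped at 1.2 and the number of tested genes stands beside each list. The injury markers stay between -0.25 and 0.19, macrophage and lymphocyte lists are lowest in treated 2 and 3, and the liver list ranges from -1.18 in vehicle 3 to 2.12 in treated 3.

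Fibroblast and pericyte genes had medians of 0.19, -0.06 and -0.02 in treated 1, 2 and 3, with Pdgfrb at 0.12 and Pdgfra at 0.40. The collagen genes of the list were on the other side of 0, with Col1a1 at -0.65 (limma adjusted p = 0.242), Col1a2 at -0.25 and Col3a1 at -0.10. All 9 had a probe and 7 were tested, Lum was detected on none of the arrays, with summed signals of 18.7 to 33.3 in vehicle and 21.4 to 32.3 in treated cortex. The adipocyte list, with 3 tested of 5 listed genes, had medians of 0.79, 0.06 and 0.19 in treated 1, 2 and 3. Adipoq had a difference of -0.08, Fabp4 of 0.76 (limma adjusted p = 0.699) and Cfd of 0.46 (limma adjusted p = 0.502). Lep was detected on none of the arrays, and Plin1 had no matched probe. The part of fibroblasts and adipocytes in the marker values was not tested.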

How the data were processed

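Per the file headers, the authors extracted spot intensity values on a linear scale with Agilent Feature Extraction 10.7.1.1. Detection (well above background) is a flag, 0 or 1, in the deposited files. Groups came from the labels. The 10 genes and all gene lists were chosen with earlier results of these data known. Each processed signal was divided by its array's 75th percentile (910.3 to 1101.5 over arrays) and put on the log2 scale. Of 61537 non-control probes 11 with outlier flags were left out, no probe was saturated, and 66.1% to 68.2% were well above background on an array. Testing required the detection flag on every array of the vehicle group or of the treated group. Accessions were matched without versions to RefSeq genes of GRCr8 (28206 probes with 1 symbol, 33331 with none). The array design is annotated on an older rat build, so gene positions are not given.

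The comparison used limma 3.58.1 (R 4.3.3), two-sided, with Benjamini-Hochberg adjustment over all tested probes and a threshold of 0.05, and the script was tested on simulated data. The labels call the samples biological replicates, and 3 arrays per group limit the precision. In gene lists the brightest tested probe stands for a gene. Named were the 10 listed genes with all probes, any list gene called, a fixed set of list genes and the first 2 genes of each cell type list, of which 1 is not reported here. Others are named because their values were seen: Has2, Has3, Has1, Timp4, Csf3r, Slc5a3, Igfbp7, Col1a1, Col1a2, Col3a1, Elane, Cxcr2, Mpo, Cd163 and Lum. The same holds for Fabp4, Cfd, Lep, Apoh, Hsd11b2, Scnn1g, Scnn1a, Upk3a and Krt5. The authors' deposited series table, also linear intensity values, had column medians of 0.11, 0.108 and 0.109 (vehicle arrays 1 to 3) and 0.109, 0.105 and 0.105 (treated arrays 1 to 3). Its scale and centring are not stated, but its log2 values correlated with the scanner values at 1.0 after rounding on every array. Settings varied one at a time were the normalization, background correction, dim-probe filter, slide, replicate block, variance model, source of values and the set of arrays.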

Additional observations from a re-analysis of the deposited data

How the results depend on the processing

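No member probe passed the adjusted threshold under any of the 16 alternatives in limma (0 in each). Over all tested probes the count of 3 became 136 with normexp, 17 with median centring, 1 without a filter, 0 with only probes well above background on all arrays, 1 with slide as a fixed block, 0 with the replicate block and 156 with trend and robust variance. Leaving out 1 array gave 0 to 4307 calls, 4307 without treated 1 and 0 without vehicle 2 or without treated 2. The cause was not tested. The median over the members was 0.15, 0.07 to 0.21 with 1 array left out, and 0.01 with slide as a random block. With values rounded to 2 decimals the sign changed for 14 of 223 single-probe values, none of them called; the second Krt18 probe, at -0.003 with slide as a fixed block, is not among them. With slide as a fixed block it changed for Spp1 (-0.22), Havcr1 (0.22), the second Cd44 probe (0.04) and the third Cd44 probe (0.28). With slide as a random block it changed for Havcr1 (0.01) and the third Cd44 probe (0.11). The third Cd44 probe also changed sign with normexp (0.15), quantile normalization (0.03) and median centring (0.01). With 1 array left out it ranged from -0.18 to 0.08, and Havcr1 ranged from -0.34 to 0.11. The replicate block changed no call of a member, and the numbers did not pair the samples: deviations of same-numbered arrays from their group means correlated at -0.211, 0.014 and -0.159, and not every array correlated best with its own number. The spread between arrays limits every statement on Krt19 and Lcn2, and nearness to background limits Havcr1 and the third Cd44 probe.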
